A study of Mus musculus with 2 samples.

Results

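The genes described here are the small nuclear RNAs (snRNAs), small nucleolar RNAs (snoRNAs) and small Cajal body RNAs (scaRNAs) that were detected in mouse gastrocnemius, the large muscle of the calf. They were chosen on measured values. A gene of one of these types in the GENCODE M21 annotation was kept when its mean TPM over both libraries was at least 5 and its summed expected count at least 100. TPM is a gene's level relative to all transcripts of its library, corrected for length. Of 2943 annotated genes of these types, among 55536 genes in all, 58 met the rule. They were 23 of 1385 snRNA genes, 29 of 1507 snoRNA genes and 6 of 51 scaRNA genes. Their levels are therefore a description, with no test.

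Total RNA was sequenced from gastrocnemius of adult female mice aged 8 to 10 months from a cross of 5xFAD and CAST. 5xFAD mice carry mutated human transgenes under the neuronal Thy1 promoter and are used to model Alzheimer's disease. CAST is a wild-derived inbred strain. All samples carry the same cross, so the 2 libraries, called library 1 and library 2 after their replicate numbers, form 1 group with no control. Both carry the same donor identifier in the labels, so whether the tissue came from separate animals is not settled, and the spread between the libraries may be technical. The human transgenes are not among the mouse genes measured. Library 1 held 35594289 expected counts and library 2 held 34541905. The limit that a count of 0 allows, 3 counts, corresponded to 0.0843 CPM in library 1 and 0.0869 CPM in library 2, for counting error only. CPM is a count scaled to the total of its library. The tissue markers fitted the label. The muscle actin Acta1 averaged 17981 ± 1441 TPM and the muscle creatine kinase Ckm 15631 ± 1928 TPM (SD, n = 2), whereas the neuronal genes Snap25, Syt1 and Rbfox3 stood at 0.135, 0.050 and 0.045 TPM.

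Spliceosomal snRNAs are the RNA cores of the particles that remove introns. U1 pairs with the start of an intron, U2 pairs with the branch site, and U12 takes the branch site role in the rare minor class of introns. SnoRNAs guide chemical changes of ribosomal RNA: those with C and D boxes direct methylation of the ribose, and those with an H box and an ACA near the end direct pseudouridylation. U3, a C/D box RNA, and Snora73, an H/ACA box RNA, act instead in the cutting of the ribosomal RNA precursor. ScaRNAs have the same boxes, reside in Cajal bodies and guide modification of the snRNAs. In mammals most snoRNAs and scaRNAs are cut from introns of longer genes, whereas U1, U2 and U3 have promoters of their own.

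The snRNA sequences that follow carried most of the signal, and they are shown because the genes differ from each other by only a few bases. All sequences are GENCODE M21 transcripts on mm10, written 5′ to 3′ as DNA letters. In Rnu1a1 the capitals mark ACTTACCTG, the stretch that pairs with the start of introns. In Gm22513 and Gm23238 they mark the bases that differ from Rnu1a1.
Rnu1a1 (chr11:87422867-87423030, plus strand): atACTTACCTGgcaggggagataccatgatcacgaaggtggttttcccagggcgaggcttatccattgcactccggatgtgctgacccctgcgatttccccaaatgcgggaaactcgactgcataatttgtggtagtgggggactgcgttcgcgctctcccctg
Gm22513 (chr12:54696782-54696945, plus strand): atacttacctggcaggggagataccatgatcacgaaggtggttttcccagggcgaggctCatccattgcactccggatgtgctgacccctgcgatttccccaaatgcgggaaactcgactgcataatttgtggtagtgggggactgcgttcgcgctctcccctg
Gm23238 (chr19:18732741-18732904, plus strand): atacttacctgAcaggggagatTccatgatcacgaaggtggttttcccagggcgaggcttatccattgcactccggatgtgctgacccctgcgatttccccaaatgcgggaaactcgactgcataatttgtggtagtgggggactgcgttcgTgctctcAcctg

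Counting positions from 1 at the 5′ end, Gm22513 differed from Rnu1a1 by T60C. Gm23238 differed by G12A, A23T, C153T and C160A, of which the first lies directly after the ACTTACCTG stretch. Gm24305, not printed, differed by A26G. ACTTACCTG was found within the first 20 bases of 5 of the 12 distinct snRNA sequences detected and of 3.98% of 1383 annotated snRNAs with a transcript sequence. It was found in none of them on the opposite strand.

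For U2 the capitals mark GTAGTA, the stretch that pairs with the branch site, in Rnu2-10, and in the other sequences the bases that differ from Rnu2-10. Gm23444 differed by G109C alone. Gm25939 differed by T69C, C78T and G109C, and Gm25360, not printed, by C78T, A95G, G109C and C154T. G109C was therefore present in all 3 sequences that differed from Rnu2-10.
Rnu2-10 (chr11:101658238-101658428, plus strand): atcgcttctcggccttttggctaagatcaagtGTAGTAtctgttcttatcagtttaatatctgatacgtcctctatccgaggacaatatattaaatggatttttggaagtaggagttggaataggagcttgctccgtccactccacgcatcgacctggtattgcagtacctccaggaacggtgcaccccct
Gm23444 (chr11:83271498-83271688, plus strand): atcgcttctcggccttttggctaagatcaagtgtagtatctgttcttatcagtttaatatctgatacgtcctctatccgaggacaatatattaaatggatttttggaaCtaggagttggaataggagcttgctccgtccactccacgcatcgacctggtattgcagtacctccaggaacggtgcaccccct
Gm25939 (chr1:72255008-72255198, plus strand): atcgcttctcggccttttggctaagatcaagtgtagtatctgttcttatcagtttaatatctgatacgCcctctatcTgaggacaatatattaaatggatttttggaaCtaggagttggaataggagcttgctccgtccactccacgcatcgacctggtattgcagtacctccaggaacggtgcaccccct

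GTAGTA was present in 4 of the 12 distinct snRNA sequences, against 3.69% of annotated snRNAs on the RNA strand and 1.16% on the opposite strand.

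A further pair of snRNA genes, Gm24265 and Gm24407, lies side by side on chromosome 5 and has only predicted-gene names. Both are 141 bases long and 98.6% identical. Gm24407 differed from Gm24265 by G88A and C99A, marked below in capitals. In Gm24265 the capitals mark ATTTTTG, a form of the U-rich site to which the ring of Sm proteins binds. ATTTTTG was present in 7 of the 12 distinct snRNA sequences, against 3.33% of annotated snRNAs on the RNA strand and 2.24% on the opposite strand.
Gm24265 (chr5:115489459-115489599, plus strand): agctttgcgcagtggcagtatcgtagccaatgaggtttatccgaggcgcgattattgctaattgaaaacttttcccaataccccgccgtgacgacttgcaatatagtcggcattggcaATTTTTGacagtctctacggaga
Gm24407 (chr5:115490254-115490394, plus strand): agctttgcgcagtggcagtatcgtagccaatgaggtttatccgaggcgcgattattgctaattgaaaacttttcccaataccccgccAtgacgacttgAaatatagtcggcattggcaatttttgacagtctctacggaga

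Both box classes were seen among the snoRNAs. Snord15b, which guides ribose methylation, has TGATGA (C box) within its first 20 bases and CTGA (D box) within its last 20. Gm22988, the detected gene of this kind with the highest TPM, ends in ACA and 3 further bases. Snora73b ends in the same way, and Snora73a differs from it by the 7 bases in capitals.
Snord15b (chr7:99479563-99479707, minus strand): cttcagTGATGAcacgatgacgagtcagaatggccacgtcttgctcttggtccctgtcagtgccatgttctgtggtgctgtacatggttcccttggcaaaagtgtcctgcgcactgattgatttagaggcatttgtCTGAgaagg
Gm22988 (chr11:69669635-69669778, minus strand): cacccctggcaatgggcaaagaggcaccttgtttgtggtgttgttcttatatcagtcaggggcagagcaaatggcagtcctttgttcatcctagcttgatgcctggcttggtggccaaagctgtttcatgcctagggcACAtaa
Snora73b (chr4:132352322-132352526, minus strand): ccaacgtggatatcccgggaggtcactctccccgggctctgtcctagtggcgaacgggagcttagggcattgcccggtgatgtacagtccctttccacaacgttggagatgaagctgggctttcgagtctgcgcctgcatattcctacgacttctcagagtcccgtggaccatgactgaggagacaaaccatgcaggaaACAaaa
Snora73a (chr4:132352775-132352979, minus strand): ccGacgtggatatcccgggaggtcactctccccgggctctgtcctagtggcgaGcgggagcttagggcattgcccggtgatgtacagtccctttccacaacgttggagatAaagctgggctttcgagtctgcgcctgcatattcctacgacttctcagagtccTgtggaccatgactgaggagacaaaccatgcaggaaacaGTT

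The 7 differences of Snora73a from Snora73b were A3G, A54G, G111A, C164T, A203G, A204T and A205T. Of the 26 distinct snoRNA sequences detected, 6 held both TGATGA and CTGA in these windows, 12 held ACA followed by 3 last bases, none held both kinds and 8 held neither. Among all 1507 annotated snoRNAs, 309 held both C and D boxes and 276 the ACA. The 6 detected ones with C and D boxes were Snord15a, Snord15b, Snord17, Scarna10, Gm22486 and Gm23547. The 8 with neither were Rnu3a, the Rnu3b sequence, Snord22, Snora74a, Gm26447, Gm24119, Gm23946 and Gm23262. U3 is among these 8, so the exact motifs and windows miss RNAs of known class. The opposite strand held TGATGA in 0.332%, CTGA in 6.10% and ACANNN in 1.19% of annotated snoRNAs. Scarna10 is annotated as a snoRNA, although its name is that of a scaRNA, and is counted with the snoRNAs here. The 6 sequences with both boxes had a median mean TPM of 112 and the 12 with ACA a median of 123.

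Reads of identical genes cannot be told apart. The 58 genes had 44 distinct sequences, and 19 genes fell into 5 groups of identical sequence. The same 5 groups were found from identical expected counts in both libraries. They comprised 7 copies of Rnu1a1, 4 copies of Rnu2-10, the pair Gm23444 and Gm23472, the pair Gm22614 and Gm25890, and the 4 Rnu3b genes. The quantifier's own posterior SD of each copy's count, given in the deposited table, was 22.4% to 83.0% of its mean in library 1 and 36.3% to 95.8% in library 2. For the 39 genes without an identical copy, the median in library 1 was 0.0546%, and 34 of them were below 1% there. Sums over copies were therefore used for levels, and the value printed for one copy is an equal share of the sum.

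Many of the genes lie in clusters, although identical copies are not always on 1 chromosome. Of the 12 detected U1 genes, 7 lie on chromosome 12 between 54696782 and 54738622, 2 on chromosome 11 between 87422867 and 87426879, 2 on chromosome 3 between 96486555 and 96488893, and Gm23238 alone on chromosome 19. Of the 8 U2 genes, 3 lie on chromosome 1 between 72226240 and 72255198 and 5 on chromosome 11. On chromosome 11, Gm23444 at 83271498 lies far from the other U2 genes, which lie between 101627366 and 101658428. Its identical copy Gm23472 is on chromosome 1. The 4 Rnu3b genes span 87443237 to 87471583 on chromosome 11. These are mm10 positions. A gene without a numbered name was placed in a family when it was at least 80% identical to a numbered entry, which held for 20 of the 37 genes with only a Gm name. Reads from CAST alleles were assigned to the mm10 sequences, and what this does to genes that differ by 1 base was not tested.

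What could be detected was bounded by length. In the deposited gene tables the effective length of every one of the 2264 entries over 100 bases was the length minus 100, and for the 679 entries of up to 100 bases it was 0. None of those 679 had any count. They included Rnu7, the snRNA of histone mRNA ends, at 62 bases, 87 of the 98 Snord genes, and all 17 entries of the brain-enriched Snord115 and Snord116 group at 94 bases. No value was measured for these genes, which says nothing about whether the RNAs were present.

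Above that border the share detected climbed with length. It was 0 of 1114 genes at 101 to 125 bases, 1.72% of 872 at 126 to 150 bases, 10.8% of 240 at 151 to 200 bases, 42.4% of 33 at 201 to 300 bases and 3 of 5 genes over 300 bases. The length ranges also differed in makeup, with 878 snRNA entries among the 1114 at 101 to 125 bases. The shortest gene detected, Snord22, had 126 bases and the longest, Scarna2, had 414. Several RNAs that every cell uses fell outside. Rnu6 of the spliceosome, with 107 bases, and Rnu5g, with 116 bases, had 0 counts in both libraries. Rnu11 of the minor spliceosome had 5 counts in library 1 and 6 in library 2, and Snord118, which acts in maturation of the large ribosomal RNA, had 3 and 4 counts.

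**Figure D1:**
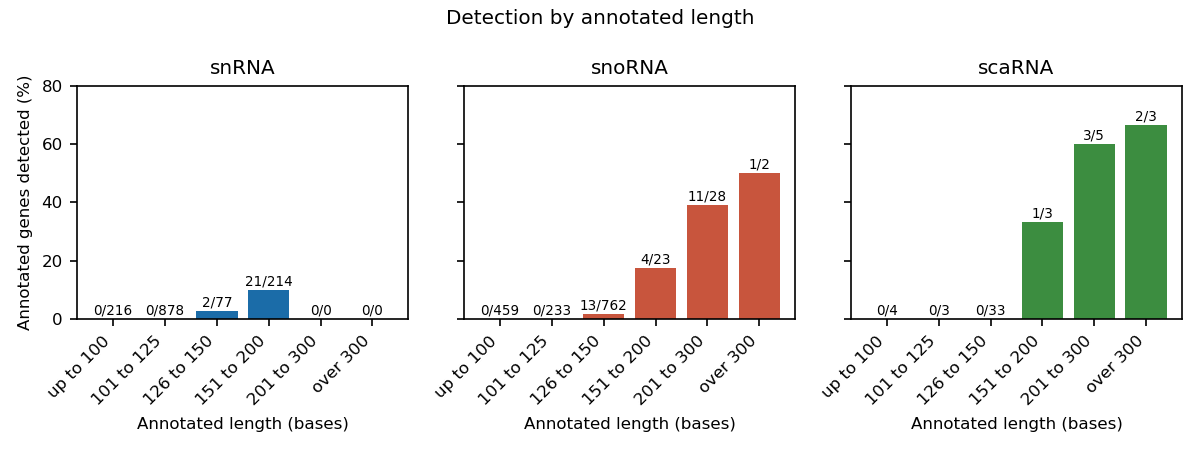
Percent of annotated genes that met the detection rule (y axis) by annotated length in bases (x axis), for snRNA, snoRNA and scaRNA genes. The numbers over the bars are genes detected of genes annotated. No gene of up to 125 bases was detected in any class, and the share was 1.72% at 126 to 150 bases over the 3 classes.

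At the border of the rule, the count decided. The genes just inside were Rnu12 with a summed count of 108, Gm25394 with 111 and Snora68 with 119.7. Those just outside were Gm25541 with 93, Gm25776 with 92 and Gm25492 with 91. A further 48 genes passed on TPM alone, and none passed on the count alone.

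The 58 genes held 50057 expected counts in library 1 and 30602 in library 2. These were 0.141% and 0.0890% of all gene counts, or 0.115 ± 0.0370% on average (SD, n = 2). By TPM their share was 2.02% in library 1, against 1.40% in library 2, or 1.71 ± 0.442%. The TPM share was larger because the division by an effective length raises short RNAs. The 58 genes held 97.3% of the counts of all annotated genes of these types in each library.

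Spliceosomal snRNAs were the most abundant class. The 23 snRNA genes summed to 13955 TPM in library 1 and 9032 in library 2. The 29 snoRNA genes summed to 5318 TPM in library 1 and 4129 in library 2. The 6 scaRNA genes summed to 823 and 712 TPM. In every class the sum was higher in library 1. The sums leave out genes of up to 100 bases, which had no value: 459 snoRNA, 216 snRNA and 4 scaRNA entries. By counts of the second quantifier, described below, the order of the classes was reversed. In library 1 it gave 0.8 counts for snRNAs, 1239 for snoRNAs and 2905 for scaRNAs, and in library 2 it gave 0, 795 and 2452.

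U2 was the highest family. Its 8 genes summed to 7047 TPM in library 1 and 4749 in library 2, which was 35.1% and 34.2% of the TPM of all 58 genes. In expected counts U2 held 19498 in library 1 and 11365 in library 2. The pair Gm23444 and Gm23472, which carries G109C, had 1584 TPM per gene in library 1 and 1074 in library 2. Each of the 4 copies identical to Rnu2-10 had 870 TPM in library 1 and 584.6 in library 2. Gm25939 had 369 and 243 TPM, and Gm25360 had 29.6 and 19.6 TPM. Summed over their copies, the Rnu2-10 sequence had 3479 TPM in library 1 and 2338 in library 2. The G109C pair summed to 3169 and 2148 TPM. The order of these U2 sequences was the same in both libraries.

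U1 came next, with 5053 TPM over 12 genes in library 1 and 3236 in library 2. Each of the 7 copies of Rnu1a1 had 532 TPM in library 1 and 348 in library 2. Gm22513, 1 base apart from them, had 653 TPM in library 1 and 404 in library 2. Its count could be separated from that of the copies, with a posterior SD of 0.0598% and 0.174% of the mean. Gm23238 on chromosome 19 had 435 and 250.5 TPM with a posterior SD of 9.99% and 14.01%. Gm24305 had 127 and 75.6 TPM and was less certain, with a posterior SD of 20.4% and 29.2%. The longer pair Gm22614 and Gm25890, which is 99.4% identical to Rnu1b2, had 55.4 TPM per gene in library 1 and 33.3 in library 2. Rnu1b1, Rnu1b2 and Rnu1b6 themselves had 2.19, 2.19 and 11.9 counts in library 1 and 0 in library 2.

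The 141-base pair was the next highest. Gm24265 had 975.5 TPM in library 1 and 556 in library 2, and Gm24407 had 837 and 461 TPM. Rnu12, the only detected RNA of the minor spliceosome among the numbered entries, had 67 counts and 43.2 TPM in library 1 and 41 counts and 30.6 TPM in library 2.

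**Figure D2:**
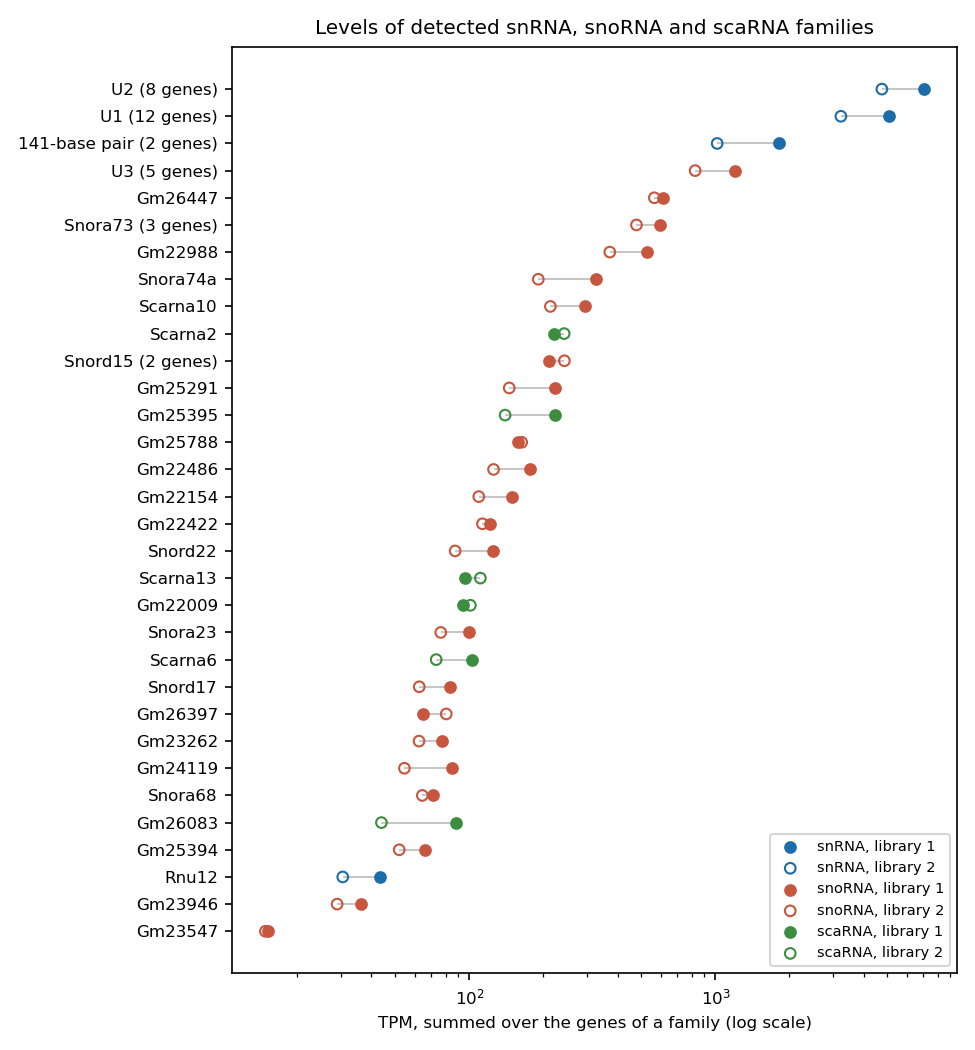
TPM (x axis, log scale) of each family of detected snRNA, snoRNA and scaRNA genes, summed over its genes, with library 1 as filled and library 2 as open circles. U2 at 7047 and 4749 TPM and U1 at 5053 and 3236 TPM stand at the top, and Gm23547 at 15.3 and 14.8 TPM at the bottom.

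U3 led the snoRNAs. Its 5 genes summed to 1199 TPM in library 1 and 827 in library 2. Each of the 4 Rnu3b genes had 286 TPM in library 1 and 197 in library 2, and Rnu3a, from another chromosome, had 54.5 and 38.7 TPM. The annotation holds a further 4 Rnu3b entries of 215 bases, contained in the 216-base ones. They had 65.7 counts each in library 1 and 0 in library 2. All 8 Rnu3b entries together had 4298 counts in library 1 and 2405 in library 2.

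Among single snoRNA genes, Gm26447 inside Eif4a2 had the highest TPM, with 611 in library 1 and 565 in library 2. Gm22988 inside Eif4a1 followed at 528 and 372 TPM. Eif4a1 and Eif4a2 code for related helicases of translation initiation. Snora74a had 326 TPM in library 1 and 191 in library 2. Gm25291 had 224 and 145 TPM. This order depends on the division by effective length, which was 29 for the 129 bases of Gm26447. By counts Gm26447 had 539 in library 1 and 431 in library 2, fewer than Scarna10 with 2022 and 1263 or Snora74a with 952 and 481.

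The Snora73 family, which acts in ribosomal RNA cutting, summed to 595 TPM in library 1 and 478 in library 2. Snora73b had 273 and 231 TPM, Snora73a 184 and 172 TPM, and Gm26448, 88.3% identical to Snora73a, 137 and 74.95 TPM. Snora23 had 99.9 TPM in library 1 and 76.5 in library 2. Snora68 had 71.3 and 64.4 TPM.

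The 9 other snoRNA genes with only a Gm name and outside these families lay between 36.3 TPM (Gm23946) and 177 TPM (Gm22486) in library 1 and between 29 TPM (Gm23946) and 163 TPM (Gm25788) in library 2. The last snoRNA, Gm23547, had 15.3 and 14.8 TPM, the lowest mean of all 58 genes.

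Of the genes with a Snord name, Snord15b was highest at 156 TPM in library 1 and 194 in library 2. Snord15a, in the same host gene, had 55.5 and 49.1 TPM. Snord22 had 125 TPM in library 1 and 87.5 in library 2, and Snord17 had 83.2 and 62.6 TPM. Only 4 of 98 Snord genes were detected, against 5 of 42 Snora genes. The Snord entries had a median length of 84 bases and the Snora entries of 132.5 bases.

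The scaRNAs were spread over a narrow range of levels. Scarna2, which in human cells guides methylation of U2, had 220 TPM in library 1 and 243 in library 2. Gm25395, which shares the host gene Atg16l1 with Scarna6, had 222 and 140 TPM. Scarna13 had 95.9 TPM in library 1 and 111 in library 2, Gm22009 had 94.5 and 101 TPM, and Scarna6 had 102 and 73.3 TPM. Gm26083 was lowest at 88.6 and 43.9 TPM. By counts, Scarna2 with 2098 and 2005 was the highest scaRNA. Scarna10, counted with the snoRNAs, had 2022 and 1263 counts (296 and 213 TPM).

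Nearly all of these RNAs were higher in library 1. After TMM scaling (edgeR's trimmed mean of log ratios), 55 of 58 genes were higher in library 1. As log2 ratios of library 1 to library 2, the 58 genes had a median of 0.71, against -0.0020 for all 6685 genes that met the same thresholds. Of those 6685, 49.3% were higher in library 1. With copies summed once, 41 of 44 distinct sequences were higher in library 1 and the median was 0.67. The exact binomial (Clopper-Pearson) 95% interval, which covers counting error only, lay above 0 for 33 of the 44 and below 0 for none. Over all 6685 genes it lay above 0 for 1201 and below 0 for 1207. There are only 2 libraries of 1 group, so no test of the difference was possible. Less RNA per cell and fewer cells of a type cannot be told apart in such tissue samples.

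The classes differed in size of ratio. All 23 snRNA genes were higher in library 1, with a median log2 ratio of 0.79 and a range of 0.68 to 1.04. Of 29 snoRNA genes 27 were higher in library 1, with a median of 0.59, and of 6 scaRNA genes 5 were, with a median of 0.37. With copies summed once, the medians were 0.83 over 12 snRNA sequences and 0.54 over 26 snoRNA sequences. The summed counts gave 0.79 (95% interval 0.76 to 0.81) for snRNAs, 0.61 (0.57 to 0.65) for snoRNAs and 0.28 (0.22 to 0.34) for scaRNAs. These intervals, which cover counting error only, did not overlap. Whether the classes differ beyond counting error was not tested. The scaRNA value rested on Scarna2, and without it the summed counts of the other 5 gave 0.47 (0.39 to 0.55).

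Within the snRNAs the families were close to each other. U2 had a log2 ratio of 0.75 (0.71 to 0.78), U1 0.82 (0.77 to 0.87) and the 141-base pair 1.01 (0.91 to 1.12), whereas Rnu12 with its low count had 0.68 (0.094 to 1.27). The interval of the pair, for counting error only, did not overlap those of U1 and U2. U3 stood at 0.71 (0.64 to 0.78), and at 0.80 for the Rnu3b genes when their 215-base entries were added.

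The scaRNAs are given in 2 sets, sorted by their ratio. Scarna2 had a log2 ratio of 0.033 (-0.056 to 0.12), Scarna13 of -0.033 (-0.21 to 0.15) and Gm22009 of 0.081 (-0.075 to 0.24). Gm25395 had 0.84 (0.70 to 0.99), Scarna6 0.65 (0.45 to 0.86) and Gm26083 1.19 (0.86 to 1.53). The intervals cover counting error only. The 2 sets were made from these same ratios, so the gap between them is a description and was not tested. Snord15b at -0.14 and Gm26397 at -0.14 were the only other genes below 0, and both intervals held 0.

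Past the fold called, an absolute log2 ratio of at least 1, were 3 of the 58 genes, or 5.17%, all higher in library 1. Over all 6685 genes the background was 0.509% in either direction, split into 0.389% with the higher value in library 1 and 0.12% with it in library 2. The 3 were Gm26083 with 250 counts in library 1 and 107 in library 2, Gm26448 with 430 and 203 counts at a log2 ratio of 1.05, and Gm24407 with 1043 and 497 counts at 1.04. The count of 3 depended on where the threshold lay. At a 1.5-fold difference it was 41 of 58, or 70.7%, with every identical copy counted, against 2.33% of all genes. With spike-in scaling 6 passed the fold of 1, and with deposited TPM 1 passed.

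**Figure D3:**
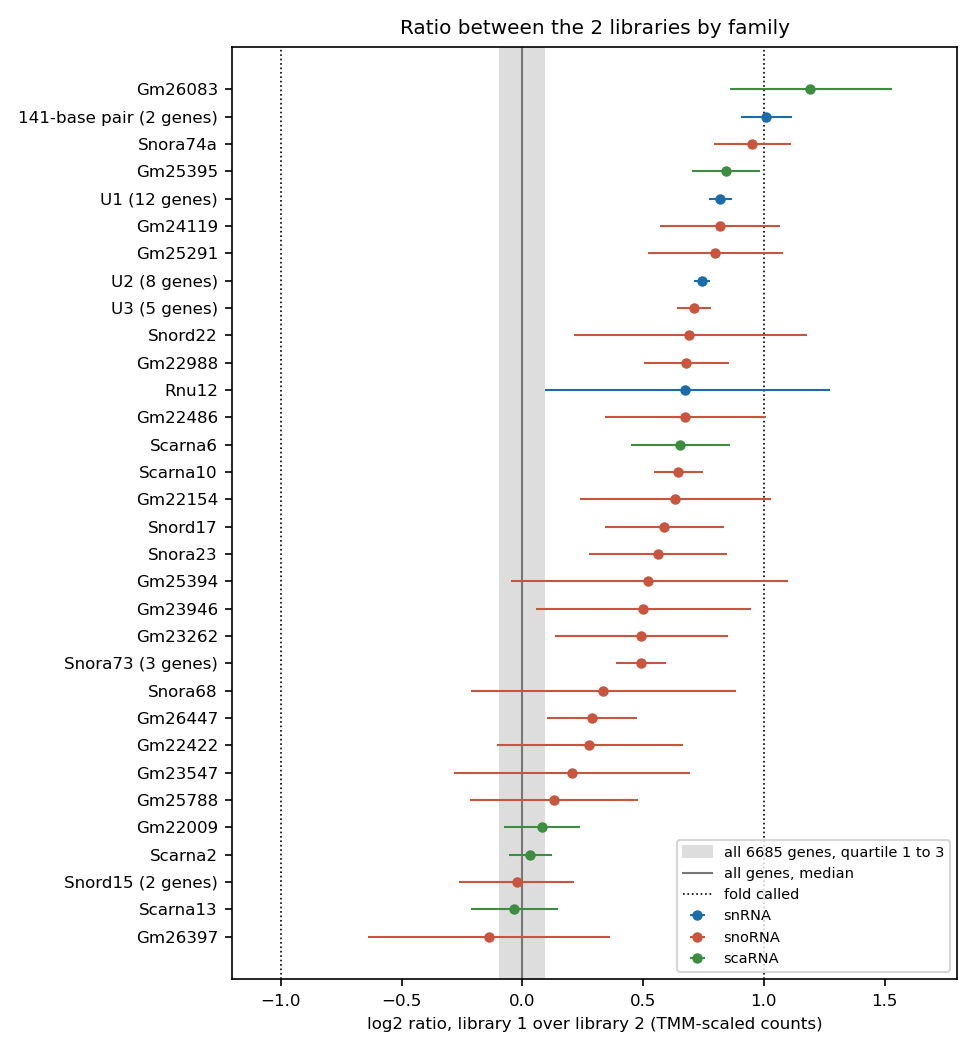
Log2 ratio of library 1 over library 2 of TMM-scaled counts (x axis) for each family, with 95% Clopper-Pearson intervals for counting error. The grey band spans quartile 1 to quartile 3 of the ratios of all 6685 genes, the line their median of -0.0020 and the dotted lines the fold called. U1, U2, U3 and the 141-base pair lie right of the band, whereas Scarna2, Scarna13 and Snord15 lie on it.

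Other short RNAs were set beside them. The 115 other genes of up to 414 bases at the same thresholds had a median log2 ratio of 0.028, and 65 of them were higher in library 1. Among them, chosen with their values known, 7SL RNA (Rn7s1 and Rn7s2, the RNA of the signal recognition particle) had a log2 ratio of 0.57, Rpph1, the RNA of RNase P, 0.57, and Rn7sk, which regulates RNA polymerase II, 0.35. 7SL made up 35.4% of library 1's gene TPM and 27.0% of library 2's. In deposited TPM the median log2 ratio over all genes was -0.17 and over the 58 genes 0.54, so the distance between them was close to that with TMM. The part of these RNAs, of RNA recovery or of library preparation in the shift was not tested.

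The 2 quantifiers gave very different values for the same libraries. The first is the table with expected counts used above. The second is the transcript table with estimated counts made straight from the reads. Over the 41 genes of up to 200 bases the second assigned 0.8 estimated counts in library 1 and 0 in library 2, against 36138 and 20891 expected counts in the first. Over the 10 genes of 201 to 250 bases it assigned 22 and 11 counts, against 6840 and 4272. Over the 7 genes above 250 bases it gave 58.2% of the first quantifier's count in library 1 and 59.5% in library 2. U1, U2 and the 141-base pair were among those at or near 0.

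The gap was not particular to these RNA types. In the second quantifier, 8 of 8 other genes of up to 200 bases at the same thresholds also had 0 counts in both libraries. Within 2-fold of each other on the TPM + 1 scale were 6 of 7 detected genes above 250 bases, against 55 of 98 other genes over 250 bases and up to the length of Scarna2, and 98.4% of 6510 longer genes. Gm23444 and Gm23472 had 0.1 estimated counts each in library 1 and 0 in library 2, against 4383 and 2571 expected counts, and Gm24265 had 0 in both, against 1216 and 599. No size is given for these gaps, since with the second value at or near 0 it would depend on the pseudocount alone. Of the 58 genes, Gm23547 alone had more counts in the second, with 180 estimated counts in library 1 and 176 in library 2 against 79.3 and 66.7 expected counts. In TPM, Gm22009 was also higher in the second, at 118.4 and 123.1 TPM against 94.5 and 101 TPM. Scarna2 had 1443 and 1390 estimated counts, Scarna10 1037 and 608, and Gm22009 567 and 511.

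**Figure D4:**
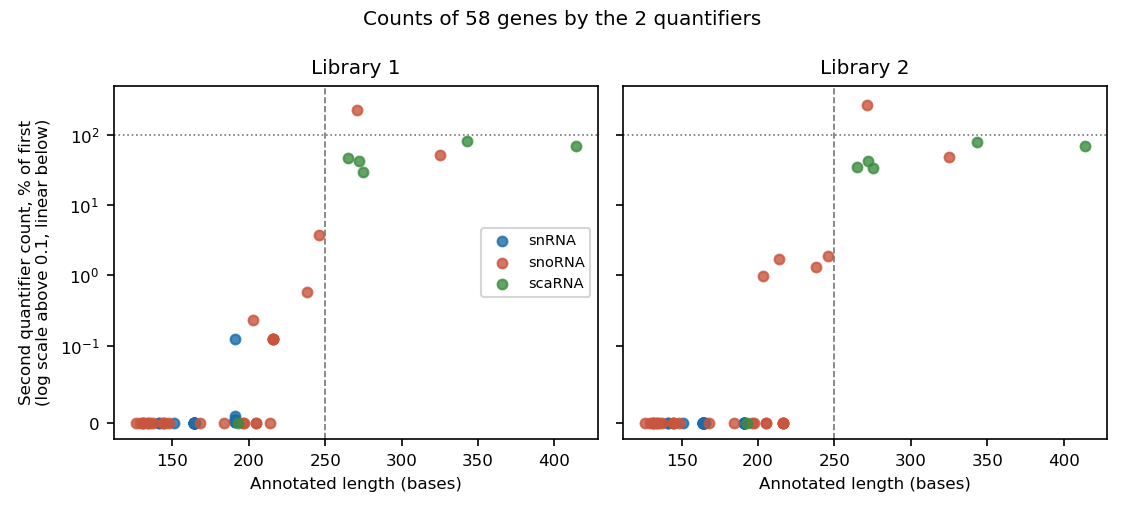
Count by the second quantifier as a percent of that by the first (y axis, linear below 0.1 and log above) against annotated length in bases (x axis), for the 58 genes in library 1 and library 2. The dashed line marks 250 bases and the dotted line equal counts. Genes of up to 200 bases lie at or near 0, and Gm23547 alone lies above the dotted line.

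The between-library shift could be looked at in the second quantifier only for the 7 genes it counted. Their median log2 ratio was 0.12 with its estimated counts, against 0.20 for the same genes with the first quantifier. These 7 genes were not alike. In the second quantifier Scarna6, Gm25395 and Scarna10 had log2 ratios of 1.09, 0.89 and 0.74, whereas Gm22009, Scarna2, Gm23547 and Scarna13 had 0.12, 0.028, 0.0069 and -0.22. The snRNAs and most snoRNAs are not among these 7.

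Host genes were compared by position. Of the 58 genes 38 lay within a longer gene on the same strand. Leaving out the U1, U2 and U3 families, 29 genes lay in 25 host genes, of which 20 code for proteins. Among the hosts were Rps3 and Rpsa of the ribosome, Eif4a1, Eif4a2 and Eif4g2 of translation initiation, Pabpc4, which binds poly(A) tails, Tomm20 and Timm23 of mitochondrial import, and the non-coding snoRNA host genes Snhg1, Snhg3, Snhg10 and Snhg20. Of the 29, 16 lay in introns of all host transcripts, 6 overlapped an exon in part, and 7 lay inside an exon of some host transcript, none of them a protein-coding one. For those 7, among them Snord15b, Gm26447, Gm22988, Gm26083, Snord22 and Snora74a, reads of host and small RNA are shared by estimation. The host transcripts that hold them had 1.20 to 73.5 counts in library 1 and 0 to 37.5 in library 2, fewer than the small RNA in each case.

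Most of these small RNAs had a higher TPM than their host gene. Only small RNAs that passed the detection rule were compared, so low ones are absent and the rule itself favours such leads. Gm25394, just inside the rule with a summed count of 111, already had a mean TPM of 58.8. TPM divides by effective length, which was 26 for the 126 bases of Snord22 and 243 for the 343 bases of Gm22009. Short RNAs are raised most by this. Whether the leads hold per annotated length was not tested. Small ones may not, and neither may those near the median. Snord15b had a mean difference in log2(TPM + 1) of 0.40, with an effective length of 45 for 145 bases. Gm26447 had one of 1.57, with an effective length of 29 for 129 bases. Of the 29, 21 had a higher TPM than the host gene in both libraries and 7 a lower one in both. The median difference in log2(TPM + 1) was 1.57 (1.62 in library 1 and 1.39 in library 2). All 6 in non-coding hosts were higher, by a median of 5.14, against a median of 0.95 for the 23 in protein-coding hosts. Levels of some non-coding hosts depended on the quantifier. In library 1 Snhg20 had 2.99 TPM in the first and 36.1 in the second, and Snhg1 had 5.46 and 18.2. Snhg3 had 4.46 and 4.70 TPM there, and Snhg10 0.64 and 0.43. Scarna13 had 95.9 TPM in library 1 and 111 in library 2 inside Snhg10 with 0.64 and 1.40 TPM. Scarna10 had 296 and 213 TPM inside Ncapd2, a condensin subunit, with 3.87 and 3.33 TPM.

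Of the genes lower than their host, Gm24119 had 84.9 TPM in library 1 and 54.4 in library 2, against 406 and 442 TPM for Slc25a3, the mitochondrial phosphate carrier. Gm23262 had 77.7 and 62.4 TPM, against 280 and 296 TPM for Eif4g2. Gm23547 had 15.3 and 14.8 TPM, against 58.6 and 59.9 TPM for Phb2, a prohibitin of the mitochondrial inner membrane. Across the 29, Spearman's rho between the mean TPM of small RNA and host was -0.30, a description over genes that share libraries and, in 4 hosts, the host. Genes of 1 host also differed from each other: in Rps3, Snord15b had 156 and 194 TPM and Snord15a 55.5 and 49.1 TPM. In the second quantifier, which gave short genes almost no counts, the median difference turned to -4.88.

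**Figure D5:**
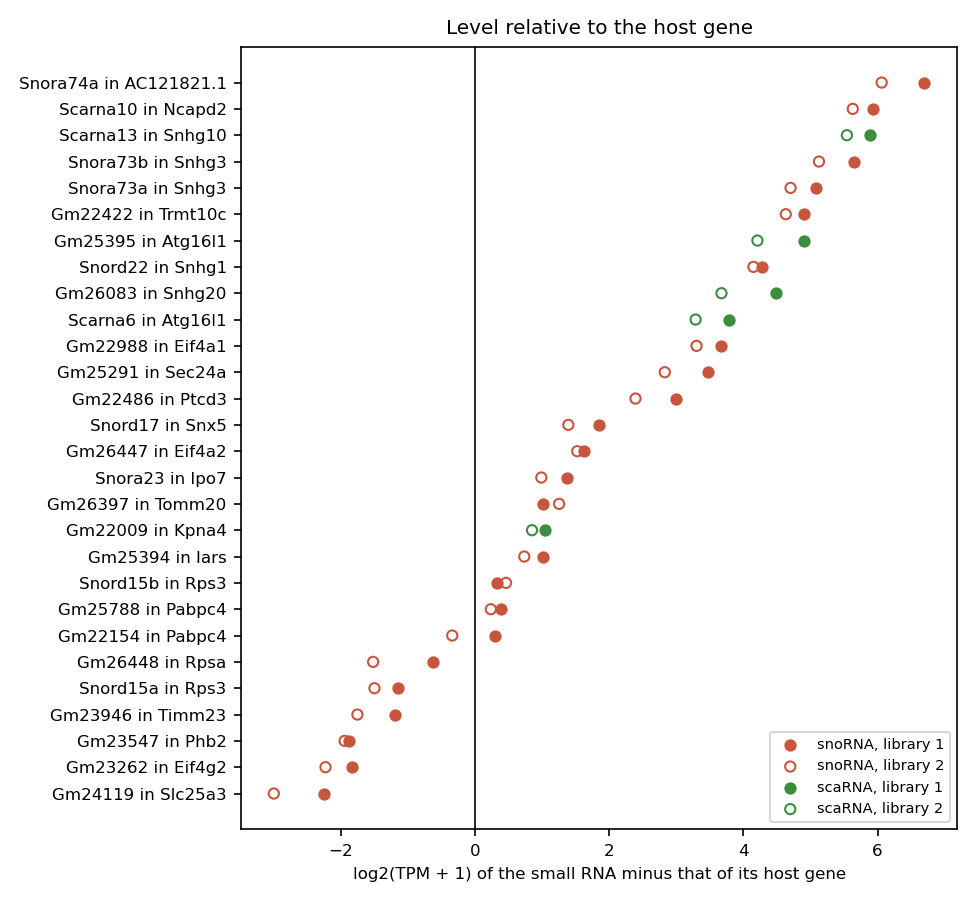
Difference in log2(TPM + 1) between each small RNA and its same-strand host gene (x axis) in library 1 (filled) and library 2 (open), for 28 of the 29 genes outside the U1, U2 and U3 families. The line at 0 marks equal TPM, which divides by effective length, and 21 genes lie right of it in both libraries.

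The ratios of the hosts were smaller. The 29 small RNAs had a median log2 ratio of 0.52 and their 25 hosts one of 0.087, and 27 of 29 small RNAs had a higher ratio than their host. Rps3 had 0.058, Snhg3 -0.033 and Eif4a2 0.22. Snhg1 at 0.67, from 117 counts in library 1 and 72.2 in library 2, was close to its Snord22 at 0.69. The 2 ratios are not separate measures, since Snord22 lies inside an exon of 3 Snhg1 transcripts. Those transcripts held 45.6 of the Snhg1 counts in library 1 and 22.1 in library 2, with reads shared by estimation.

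The mRNAs for the proteins of these particles were mostly detected. In a list of 84 genes for the proteins that bind, assemble, modify or process these RNAs, 80 had a TPM of at least 1 in both libraries, or 95.2%, against 44.5% of 22028 protein-coding genes. Their log2 ratios of library 1 to library 2 had a median of 0.013, and 44 of 84 were higher in library 1. Snrpb of the Sm ring averaged 57.2 ± 5.87 TPM (SD, n = 2) and Snrnp70 of the U1 particle 28.7 ± 3.01 TPM. Sf3b1 of the U2 particle averaged 22.3 ± 0.877 TPM. In the snoRNA particles, the methyltransferase Fbl averaged 9.89 ± 0.643 TPM and the pseudouridine synthase Dkc1 12.8 ± 2.99 TPM. The lowest lists were those of the Cajal body, with Coil at 2.09 ± 0.0354 TPM and Wrap53 at 1.11 ± 0.170 TPM, and of histone mRNA processing with U7.

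One of the 84, Gemin4 of the SMN complex that loads Sm rings, had an absolute log2 ratio of at least 1, with 156 counts in library 1 and 41.3 in library 2 and a log2 ratio of 1.89. That is 1.19% of the 84, against 1.31% of all 11920 genes with a mean TPM of at least 0.5 and a summed count of at least 50, thresholds that all 84 met and that were chosen after their values were seen. None of the other 11 lists had a gene past the fold. Smn1 itself had a log2 ratio of 0.15, Phax, which exports snRNAs, of 0.0083, and Coil of -0.044.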

How the data were processed

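Total RNA-seq libraries of 2 gastrocnemius samples (1 group, 300 ng of RNA each, directional kit, per the labels' protocols) were used. Per the deposited read-me, tables were made on mm10 with GENCODE M21, and the tools are not given in the sources used here; per the file headers, the columns are those that RSEM and kallisto write. Expected counts in the deposited gene tables and estimated counts in the deposited second transcript tables share reads among genes and are not whole. They were rounded for ratios. The authors computed TPM over all entries, spike-ins included. Lengths, names, positions and sequences came from the GENCODE M21 annotation. The genes and lists were chosen with earlier results of these data known. Ratios used counts scaled by TMM (edgeR 4.0.16) over genes of at least 1 CPM in both libraries. The script was tested on simulated data. Alternatives used DESeq2 1.42.0 size factors, totals, spike-ins, TPM, other thresholds and single libraries. Values per library were printed for numbered snRNA, U3 and Scarna genes, the 10 highest genes, the 5 highest by count in each class, genes past the fold and genes furthest apart between quantifiers. Identity was computed with edlib 1.3.9.post1. Depth was 35594289 expected counts in library 1 and 34541905 in library 2. The values of 1 host gene are not reported here.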

Additional observations from a re-analysis of the deposited data

How the results depend on the processing

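The number of genes detected was 58. It was 97 with a mean TPM of at least 1 and a summed count of at least 20, 47 with 10 and 200, 44 with identical counts taken as 1 group, and 7 with the second quantifier. The share of counts was 0.115% and lay between 0.0890% and 0.141% with 1 library left out, and that of TPM between 1.40% and 2.02%. With the second quantifier the shares were 0.00989% and 0.0866%. The median log2 ratio stayed between 0.67 and 0.78 under DESeq2 size factors, library totals, spike-ins, no filter, a summed count of at least 500 and copies summed once. It was 0.54 with deposited TPM, where all genes had -0.17, and 0.12 over the 7 genes of the second quantifier. The number past the fold was 3 in the main result, 6 with spike-ins and 1 with deposited TPM. At a 1.5-fold difference it was 41, with every identical copy counted. The median gap between quantifiers, 7.40 on the log2(TPM + 1) scale and set by the pseudocount where the second gave almost no counts, was 8.61 for genes with at least 500 counts and 7.28 to 7.39 with 1 library left out. The median difference from the host gene was 3.51 over all 38 genes and 1.57 over 29, and 1.39 to 1.62 over the 29 with 1 library left out. With the second quantifier it turned to -4.12 and -4.88. That quantifier gave 48 of the 58 genes a summed count under 3. The summed log2 ratio of the scaRNAs, 0.28, was 0.47 without Scarna2, an alternative chosen after seeing the data. No paired analysis was possible because the series has 1 group of 2 libraries.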
